A study of Mus musculus with 14 samples.

Results

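Ccl24, Ccl6 and Ccl2 are mouse genes for CC chemokines, small secreted proteins that attract leukocytes, and all of them are made by macrophages. They were chosen by name, and their rows were read in both deposited tables, 3 genes of the 9474 in each. The study exposed mouse macrophages to IL4, the cytokine of type 2 immunity, in culture and in leukemic bone marrow. In culture, monocytes purified from the marrow of C57BL/6 mice grew for 7 days in medium with serum and CSF1, the growth factor that turns monocytes into macrophages, without IL4 (culture controls, n = 4 libraries) or with 20 ng/mL IL4 (n = 4). CSF1 was present in both culture groups, at 25 ng/mL per the growth protocol and at 20 ng/mL per the design text. In the marrow experiment, all mice carried transplanted acute myeloid leukemia (AML) cells, and cells with F4/80 on their surface were sorted from the bone marrow after 12 days. The AML cells carried an IL4 cDNA (n = 3 libraries) or an empty vector (marrow controls, n = 3), although the design text calls the control leukemia wild type. The IL4 cDNA in marrow was therefore in the leukemic cells themselves, and other sources of IL4 were not examined. No group had healthy marrow. Whether the libraries of a group came from different cultures or animals is not in the labels; p-values then reflect only the spread among these samples, part or all of which may be technical.

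Chemokines bind receptors on the surface of leukocytes, and a cell moves along the gradient of the ligand its receptor recognises. Ccl24, also called eotaxin-2, is a ligand of Ccr3, the main chemokine receptor of eosinophils. Ccl6, also called C10, is a rodent CC chemokine that acts through Ccr1. Ccl2, also called MCP-1, is the ligand of Ccr2, the receptor by which monocytes leave the bone marrow and enter inflamed tissue. IL4 signals through Il4ra and the transcription factor Stat6 and drives the alternative activation of macrophages, whereas NF-kB is a known activator of Ccl2.

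The genes lie at separate places in the genome (mm10, the same assembly as GRCm38, with the GENCODE annotation). Ccl24 (ENSMUSG00000004814.10) is on chromosome 5 at 135569937 to 135573049, on the minus strand, and its longest coding transcript has 3 exons and 1295 bp. Ccl6 (ENSMUSG00000018927.3) is on chromosome 11 at 83587882 to 83593087, on the minus strand, with 4 exons and 1440 bp. Ccl2 (ENSMUSG00000035385.5) is on chromosome 11 at 82035571 to 82037453, on the plus strand, with 3 exons and 813 bp. Ccl2 and Ccl6 belong to the same chromosome but their starts are 1558 kb apart. Ccl6 overlaps E230016K23Rik and Ccl2 overlaps Gm17268, each on the opposite strand. The use of strand in counting is not given in the sources used here, so reads of these antisense neighbours cannot be told apart from those of Ccl6 and Ccl2.

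Of the 3 genes, 1 has an entry in the promoter sequences used here. The Ccl6 window is shown because Ccl6 has the most reads of the members and rose in both experiments, and because its sequence contains a repeat next to the start site. It covers 250 bases before to 50 bases after the start (RefSeq, GRCm38.p6, chr11:83593038-83593337, minus strand), written 5′ to 3′ along the gene. Capitals mark matches to AGGAAG, the core letters bound by ETS factors such as PU.1, here read on the opposite strand as CTTCCT.
Ccl6: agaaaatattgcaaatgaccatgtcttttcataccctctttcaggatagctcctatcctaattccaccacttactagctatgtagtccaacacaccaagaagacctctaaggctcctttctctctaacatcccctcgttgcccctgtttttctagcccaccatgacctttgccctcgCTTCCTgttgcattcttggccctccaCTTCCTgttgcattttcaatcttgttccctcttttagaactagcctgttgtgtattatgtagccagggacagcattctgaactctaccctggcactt
The matches begin 73 and 47 bases before the start. Each opens an exact repeat of 14 bases, cttcctgttgcatt, whose copies are spaced 26 bases apart. On both strands, 35.4% of 32851 RefSeq promoter windows of this length hold AGGAAG at least once. The Ccl6 window holds no match to the STAT6 motif (6.95% of windows), TTCNNNGAA (other STAT factors, 8.30%), the NF-kB motif (8.46%), TTGCNNAA (C/EBP, 10.8%) or TATAAA (13.6%). The STAT6 motif is the other STAT motif with its outer triplets spaced 1 base wider. Absence says only that these letters are not in this window. The window of the neighbouring gene Ccl9 shares a stretch of 40 bases with that of Ccl6, identical at 36 positions (90.0%). The stretch starts 25 bases before the annotated start of Ccl6, and in Ccl9 it lies after the start. Ccl9 holds an NF-kB match and matches to TATAAA but none to AGGAAG.

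Each deposited value is the log2 of a whole read number plus 0.5, moved by an amount fixed for the gene and another fixed for the library. With both amounts solved, the reads of each library were recovered, with totals of 529814 to 850713 and a median of 24 to 41 reads per gene, so the libraries are shallow. Fold changes and tests below use the deposited log2 values, and levels use RPM, the recovered reads of a gene per 1000000 recovered reads of its library. The amount per gene is the same in both tables, and that of each library plus the log2 of its total varies by 0.044 over the 14 libraries. The median gene moved by -0.36 (log2) with IL4 in culture and by -0.06 in marrow, so changes are also given relative to the median. All 10 listed macrophage markers were measured in both experiments. Their summed level in culture was 10803 to 13189 RPM in controls and 13611 to 14511 with IL4. In marrow it was 2799 to 3101 RPM in controls and 2520 to 2761 with IL4. Emr1, the gene of F4/80, had 745 to 2415 reads in culture libraries but 28 to 126 in marrow. The 6 measured neutrophil markers of 17 listed summed to 216 to 506 RPM in culture. In marrow their sum was 61033.5 to 70875 RPM in controls and 45801 to 57073 with IL4, without overlap. S100a9 alone had 12728 to 19949 reads in the marrow libraries. The marrow libraries thus held much RNA of neutrophil genes beside that of macrophages, and its part in the chemokine values was not tested. In such bulk samples, fewer cells of a type and less RNA per cell cannot be told apart.

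Ccl24 was nearly silent without IL4 and rose with IL4 in both experiments. Culture controls 1 to 4 held 0, 0, 1 and 0 reads of Ccl24, against 37, 28, 11 and 27 in IL4 libraries 1 to 4. The groups did not overlap, and the third IL4 library was the lowest of its group. The means were 0.415 ± 0.830 and 35.5 ± 13.6 RPM (SD, n = 4 each). On the deposited scale Ccl24 was 5.11 ± 0.67 (log2, SE) higher with IL4, or 5.47 relative to the median gene (limma, adjusted p = 0.000311). With 1 read against 103, the ratio of summed reads, scaled by library totals, was 97.2, with a 95% counting interval from 17.1 to 3877. A fitted fold for such low counts depends on the 0.5 added to the reads.

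Marrow controls 1 to 3 held 0, 0 and 0 reads of Ccl24, against 46, 91 and 76 in IL4 libraries 1 to 3. No marrow control held a read of Ccl24, and a count of 0 over the group allows a level of up to 1.56 RPM (3 reads). The mean with IL4 was 117 ± 48.2 RPM (SD, n = 3). The summed reads were 0 against 213. With 3 reads set for the controls, the level was 72.5-fold higher with IL4. The lower limit of the 95% counting interval was 58.5-fold. The second IL4 library had the highest level, 172 RPM, against 83.1 and 94.8 in the other libraries. On the deposited scale the difference was 7.16 ± 0.57 (limma, adjusted p = 0.000111). Ordered by level, the control groups were lowest and overlapped each other, the culture IL4 libraries followed, and the marrow IL4 libraries were highest, with no overlap between the last groups. The difference between the responses was 2.05 ± 0.83 (log2, marrow minus culture, 95% interval 0.28 to 3.81), which did not pass the test over all genes (limma, adjusted p = 0.0881). Without the variance trend its adjusted p was 0.0411, and on a log2 scale with 5 added to RPM it was 0.00539.

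Ccl6 was expressed in all 14 libraries and rose with IL4 in both experiments. Culture controls 1 to 4 held 171, 82, 90 and 160 reads, against 770, 714, 619 and 802 in IL4 libraries 1 to 4. Each IL4 library lay far above each control, and the fourth was the highest in RPM. The mean went from 182 ± 46.4 to 1021 ± 167 RPM (SD, n = 4 each). This was a log2 change of 2.51 ± 0.18, or 5.70-fold, and 2.87 relative to the median gene (limma, adjusted p = 1.11e-05). The ratio of summed reads, scaled by library totals, was 5.45 (95% counting interval 4.96 to 6.01).

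Reads of Ccl6 numbered 262, 254 and 273 in marrow controls 1 to 3, against 532, 564 and 1140 in IL4 libraries 1 to 3. The controls were within 404.7 to 418 RPM of one another, and the IL4 libraries ranged from 961 to 1422, so the groups did not overlap. The mean went from 410 ± 7.26 to 1149 ± 242 RPM (SD, n = 3 each). The log2 change was 1.47 ± 0.15, or 2.76-fold (limma, adjusted p = 0.000409). The response was smaller in marrow than in culture by 1.05 ± 0.26 (log2 difference -1.05, limma, adjusted p = 0.0112). The level with IL4 overlapped between the experiments, 908 to 1267 RPM in culture against 961 to 1422 in marrow. The control levels did not overlap, with at most 239 RPM in culture and at least 404.7 in marrow. The responses to IL4 therefore differed in size while starting from different control levels.

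Ccl2 fell with IL4, from low counts. Culture controls 1 to 4 held 26, 45, 14 and 9 reads, against 0, 5, 2 and 11 in IL4 libraries 1 to 4. The groups overlapped, since the fourth IL4 library had more reads than the fourth control. The means were 36.0 ± 28.0 RPM without IL4 and 6.68 ± 7.59 with IL4 (SD, n = 4 each). The log2 change was -2.84 ± 0.88, or -2.48 relative to the median gene (limma, adjusted p = 0.0267). Summed reads of 94 against 18 gave a level 5.53-fold higher in controls (95% counting interval 3.32 to 9.74). The call depended on scaling and on single libraries. With each library centred on its median the adjusted p was 0.0601, and with quantile normalization 0.0562. It was 0.0575 without the first control, 0.0750 without the second control and 0.0567 without the third IL4 library. Leaving out both libraries numbered 4, the pair that overlapped, gave -3.91 (adjusted p = 0.00582), a choice made after seeing the data.

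Reads of Ccl2 numbered 5, 2 and 8 in marrow controls 1 to 3, against 0, 1 and 0 in IL4 libraries 1 to 3. The groups did not overlap, with the single IL4 read in the second library. The means were 7.70 ± 4.37 and 0.629 ± 1.09 RPM (SD, n = 3 each). The log2 change was -2.71 ± 0.64 (limma, adjusted p = 0.0184). The summed reads, 15 against 1, gave a level 14.7-fold higher in controls (95% counting interval 2.26 to 618). The adjusted p was 0.0654 without the first control, 0.0768 without the third control, 0.0529 without the first IL4 library and 0.0590 without the third. Ordered by mean level, culture controls were highest for Ccl2 and did not overlap marrow controls, the next group, but overlapped culture IL4 libraries. The 3 lower groups each overlapped the next in the order. The responses in both experiments differed by 0.14 ± 1.29 (limma, adjusted p = 0.954), with a 95% interval from -2.61 to 2.89 that leaves the difference undetermined at this depth.

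**Figure D1:**
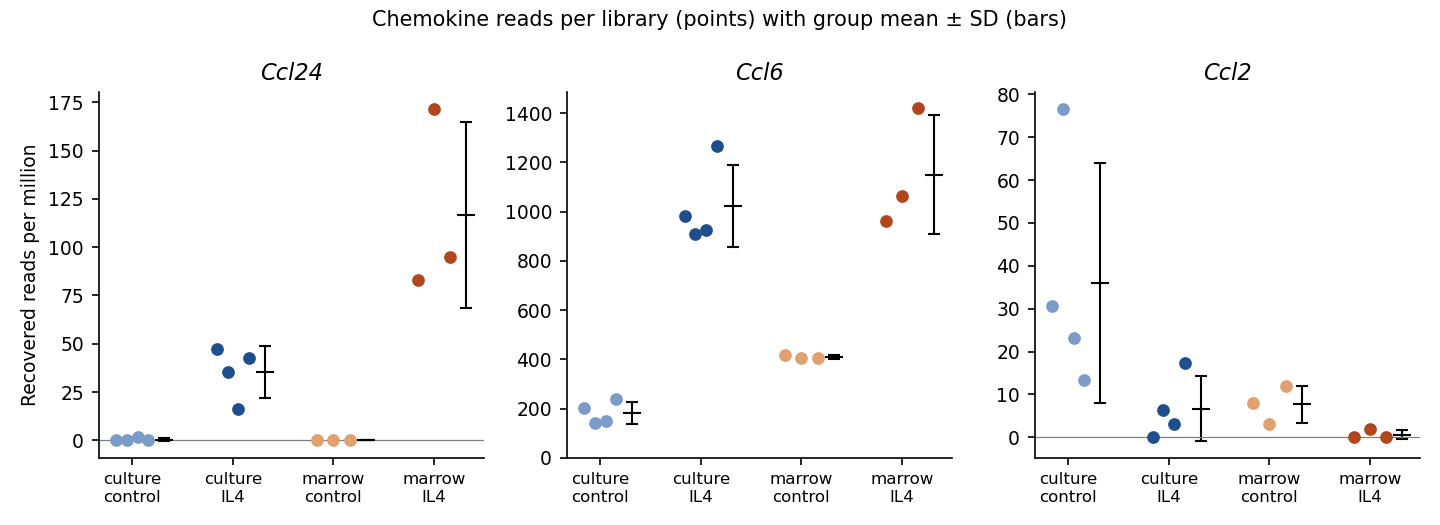
RPM, recovered reads per 1000000 recovered reads (y axis, linear, a separate scale for each gene) of Ccl24, Ccl6 and Ccl2 in each library of the 4 groups (x axis). Points are libraries in the order of their numbers, and bars are the group mean ± SD (n = 4 in culture, n = 3 in marrow). Ccl24 is at or near 0 in both control groups, Ccl6 is present in all groups and higher with IL4, and Ccl2 is highest in the culture controls.

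The authors' deposited table for culture gave fold changes of 54.3 for Ccl24 (q = 0.0228), 1.34 for Ccl6 (q = 0.00151) and 0.139 for Ccl2 (q = 0.312). The authors' deposited table for marrow gave 143 for Ccl24 (q = 0.0147), 2.76 for Ccl6 (q = 0.0329) and 0.153 for Ccl2 (q = 0.138). In marrow, each deposited fold equals the difference of the deposited log2 values. In culture, the plain difference matched the deposited fold of 1.98% of genes within 0.01 (log2). A difference taken after a second log2 of the log2 values, with values under 0.01 set to 0.01, matched 100% of the 9474 genes, Ccl24 and Ccl2 with their values below 0 included. For Ccl6 this turns 5.70-fold into the deposited 1.34, and for Ccl24 it turns a fitted 34.6-fold into 54.3, so the deposited folds of the experiments are not on the same scale.

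All 3 members were called at an adjusted p below 0.05 in both experiments, with Ccl24 and Ccl6 higher and Ccl2 lower with IL4. Over all genes, 40.5% were called in culture (7.96% higher and 32.6% lower) and 18.2% in marrow (6.7% higher and 11.5% lower). The groups did not overlap for Ccl24 and Ccl6 in both experiments and for Ccl2 in marrow. Over all genes, 7.49% were higher and 30.2% lower without overlap in culture, and 15.5% and 22.1% in marrow. Of the other listed CC chemokines, Ccl9 and Ccl3 were measured, making 5 of 21. Ccl9, a ligand of Ccr1 like Ccl6, has its start 14.5 kb from that of Ccl6. It had 283 to 447 reads in culture controls and 927 to 1063 with IL4, a log2 change of 1.47 ± 0.16 (limma, adjusted p = 0.000124). In marrow its 144 to 159 control reads and 115 to 329 reads with IL4 overlapped in level, and the change was 0.30 ± 0.22 (limma, adjusted p = 0.392, 95% interval -0.20 to 0.81). Ccl9 therefore responded less in marrow than in culture, by a log2 difference of -1.17 (limma, adjusted p = 0.00846), as Ccl6 did.

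Ccl3, also called MIP-1α, is an inflammatory ligand of Ccr1 whose start is 56.3 kb from that of Ccl6. It fell in culture from 9 to 20 reads per library in controls to 1 to 3 with IL4, a log2 change of -2.51 ± 0.31 (limma, adjusted p = 0.000218). Marrow controls held 8 to 12 reads and marrow IL4 libraries 6 to 14, a change of 0.13 ± 0.30 (limma, adjusted p = 0.806, 95% interval -0.54 to 0.80). The responses of Ccl3 differed by 2.64 between the experiments (limma, adjusted p = 0.00113). Over all genes, 23.1% were called for such a difference, 16.6% with the marrow response more positive and 6.45% with it more negative. The 5 CC chemokines had a median log2 change of 1.47 in culture (-0.36 over all genes) and 0.30 in marrow (-0.06 over all genes).

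Levels of different genes were compared as RPM per kb of the longest coding transcript. Summed over the 5 CC chemokines, this level was 348 to 383 in culture controls and 1100 to 1499 with IL4, and it was 389 to 395 in marrow controls and 815 to 1220 with IL4. Ccl6 made up 34.9% ± 9.54 (SD, n = 4) of the sum in culture controls and 58.4% ± 1.54 with IL4. In marrow its share was already 72.4% ± 1.08 (SD, n = 3) in controls and was 78.9% ± 4.46 with IL4. Ccl24 went from 0.0922% to 2.26% of the sum in culture, and from 0% to 9.04% in marrow, where the second IL4 library reached 13.2%. The share of Ccl2 was 12.0% ± 8.99 in culture controls, with 25.1% in the second library, and it was 0.616% with IL4. In marrow its share was 2.41% in controls and 0.0772% with IL4.

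Of the reads per kb of the 5 measured CC chemokines (21 listed), Ccl6 and Ccl9 together held most in every library, in proportions that differed between the groups. The ratio of Ccl6 to Ccl9 per kb was 0.777 ± 0.291 (SD, n = 4) in culture controls, with 0.534 to 1.18 over the libraries. With IL4 in culture it was 1.53 ± 0.127. It was 3.60 ± 0.240 (SD, n = 3) in marrow controls and 8.13 ± 1.33 with IL4. The ranges of the 4 groups did not overlap, so the neighbouring genes did not move in a fixed proportion. These ratios depend on the transcript lengths used.

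**Figure D2:**
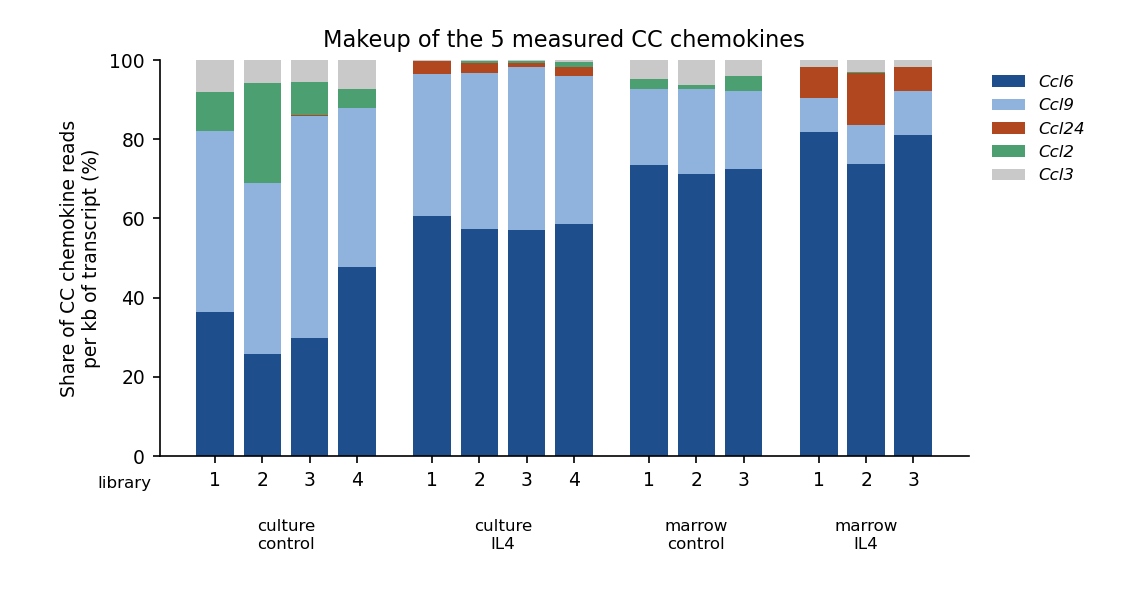
Share of each CC chemokine in the summed reads per kb of transcript of the 5 measured CC chemokines (y axis, %) in each library (x axis, libraries numbered within the 4 groups). Ccl6 and Ccl9 fill most of each bar, Ccl2 has its largest share, 25.1%, in the second culture control, and Ccl24 takes a visible share in the IL4 libraries.

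Ccr2, the receptor for Ccl2, fell with its ligand in both experiments. It had 47 to 144 reads in culture controls and 2 to 29 with IL4, a log2 change of -3.63 ± 0.67 (limma, adjusted p = 0.00222). Marrow controls held 449 to 530 reads of it and marrow IL4 libraries 23 to 46, a change of -3.92 ± 0.16 (limma, adjusted p = 3.83e-06). Ccr2 also counts among the 8 measured monocyte markers of 15 listed, of which 6 fell and 1, Chil3, rose in marrow. The summed level of these markers was 8566 to 10641 RPM in marrow controls and 29240 to 30830 with IL4, mostly Chil3, which had 15723 to 24205 reads with IL4. In culture the sum was 1108 to 2065 without IL4 and 28982 to 39448 with it. There, 2 markers, Chil3 among them, rose and 3 fell. The median log2 change of the 8 markers was -1.43 in culture and -2.15 in marrow, against the direction of the sums. The sums are therefore no measure of the share of monocytes. Stromal cells can also make Ccl2, and 5 of 10 listed endothelial and stromal markers were measured. Their summed level was 723 to 1783 RPM in culture controls and 88.1 to 211 with IL4, where Col1a1, Col1a2 and Sparc fell and Pecam1 rose. Col1a1, a collagen chain of fibroblasts, had 232 to 406 reads in culture controls and 23 to 57 with IL4 (-3.04 ± 0.30, limma, adjusted p = 6.51e-05). In marrow the sum moved the other way, from 71.8 to 83.4 RPM up to 186 to 328, with 4 of the 5 markers higher and none lower. For comparison, 7.96% of all genes were higher and 32.6% lower in culture, and 6.7% and 11.5% in marrow. The part of a changed share of monocytes or of stromal cells in the fall of Ccl2 was not tested.

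Ccr3, the receptor for Ccl24, had few reads. It had 5 to 17 reads in culture controls and 4 to 8 with IL4 (log2 change -1.09 ± 0.46, limma, adjusted p = 0.0809). Marrow controls held 0 to 3 reads and marrow IL4 libraries 3 to 5 (1.83 ± 0.78, limma, adjusted p = 0.139). Neither change was called, and the difference of the responses, 2.93, was called (limma, adjusted p = 0.0229) but not with quantile normalization (2.22, adjusted p = 0.0890). Ccr3 is one of 4 measured eosinophil markers of 11 listed. The sum of these markers was 136 to 182 RPM in marrow controls and 383 to 514 with IL4, as Ccl24 rose. In marrow, Prg2, the eosinophil granule protein, went from 41 to 50 reads to 71 to 132 (1.22 ± 0.20, limma, adjusted p = 0.00344), and Ear2, an eosinophil ribonuclease gene whose reads may be split with near-identical family members, rose by 1.77 ± 0.31 (limma, adjusted p = 0.00463). In culture the sum went from 14.1 to 37.3 up to 605 to 2118 RPM, almost all of it Ear2, while Prg2 was at 0 in all culture IL4 libraries. The part of eosinophil RNA in the rise of Ccl24 was not tested in culture or in marrow.

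Ccr1, the receptor for Ccl6 and Ccl9, had 30 to 99 reads in culture controls and 76 to 173 with IL4. The groups overlapped through the fourth library of each, and the log2 change was 1.45 ± 0.34 (limma, adjusted p = 0.00751). Marrow controls held 58 to 114 reads and marrow IL4 libraries 99 to 264, with no overlap in level. The change of 0.89 ± 0.27 missed the threshold (limma, adjusted p = 0.0506) and passed it after centring (adjusted p = 0.0381).

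Across the 17 measured chemokine and chemokine receptor genes of 63 listed, 5 rose and 9 fell in culture, and 3 rose and 3 fell in marrow. The shares of all genes were 7.96% higher and 32.6% lower in culture, and 6.7% and 11.5% in marrow. The chemokine and receptor genes that rose in culture were Ccl6, Ccl9, Ccl24, Ccr1 and Ccrl2. Those that fell were Ccl2, Ccl3, Cxcl14, Cxcl16, Pf4, Ccr2, Cxcr4, Cx3cr1 and Cmklr1. Cmklr1 is a chemokine-like receptor, counted here through the list of atypical chemokine receptors. In marrow Ccl6, Ccl24 and Cxcr4 rose, and Ccl2, Ccr2 and Cx3cr1 fell. Ccl6, Ccl24, Ccl2, Ccr2 and Cx3cr1 were called in the same direction in both. Cx3cr1, the fractalkine receptor of monocytes, had 154 to 286 reads in culture controls and 79 to 96 in marrow controls, and 0 in each of the IL4 libraries. Its level was at least 325-fold lower in culture and at least 88.1-fold lower in marrow. Cxcr4, the receptor that retains cells in the marrow, moved in opposite directions, by -1.32 in culture and by 0.40 in marrow (limma, adjusted p = 0.0485), and the difference of 1.71 was called. The marrow call of Cxcr4 held after centring (limma, adjusted p = 0.0232). It was lost without the variance trend, and when any single marrow control or the third marrow IL4 library was left out. Pf4, or platelet factor 4, fell by 3.08 on the log2 scale in culture. Cxcl16, a transmembrane chemokine, fell by 1.58 in culture. After centring, 5 rose and 7 fell in culture, with Ccl2 and Cmklr1 no longer called, and 4 rose and 3 fell in marrow, with Ccr1 now called.

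**Figure D3:**
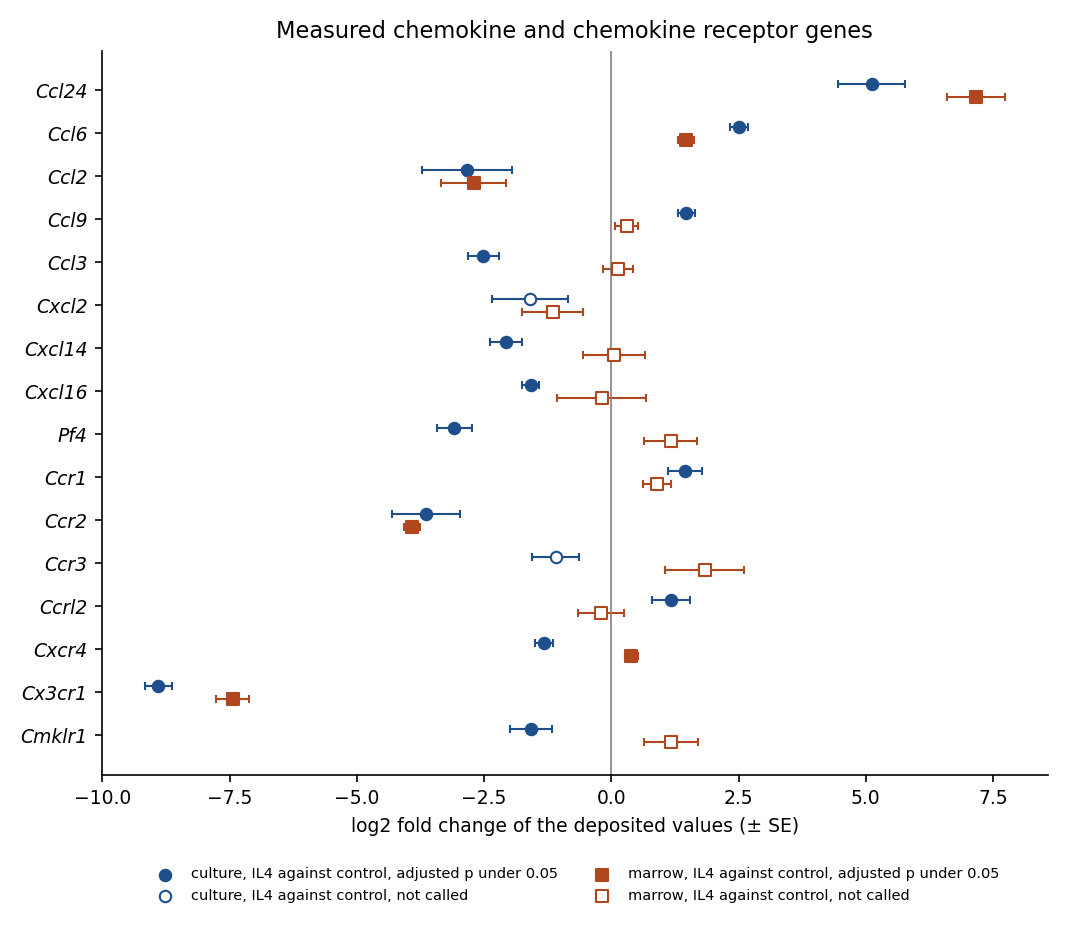
Log2 fold change of the deposited values, IL4 against control (x axis, ± SE), of 16 of the 17 measured chemokine and chemokine receptor genes (y axis) in culture (circles) and marrow (squares). Filled symbols have an adjusted p below 0.05 in limma. Ccl24 and Ccl6 lie right of 0 and Ccl2, Ccr2 and Cx3cr1 left of 0 in both experiments, whereas Ccl9 and Ccl3 are called in culture only. The symbols of Cx3cr1 and Ccl24 depend on the 0.5 added to the reads, since a group is at or near 0.

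In the list of the IL4 receptor and its Stat6 pathway, 9 of 21 genes rose and 6 fell in culture, and 6 rose and 3 fell in marrow. Beside these, 7.96% of all genes rose and 32.6% fell in culture, and 6.7% and 11.5% in marrow. Il4ra, the receptor chain for IL4, fell in culture by 1.13 on the log2 scale (limma, adjusted p = 0.000211) and rose in marrow by 1.07 (limma, adjusted p = 0.00344). Stat6 changed by -0.16 in culture and by 0.24 in marrow, neither called. Cish, a feedback inhibitor of cytokine signalling, rose by 5.26 ± 0.47 in culture and by 3.64 ± 0.24 in marrow (limma, adjusted p = 3.5e-05 and 4.59e-05). Irf4, a transcription factor of alternative activation, rose by 3.32 ± 0.26 in culture and changed by -1.54 ± 0.18 in marrow (limma, adjusted p = 1.44e-05 and 0.000608).

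The list of NF-kB and AP-1 factors and their feedback had 32 measured genes, of which 6 rose and 15 fell in culture and 0 rose and 8 fell in marrow, beside the fall of Ccl2. Its median change, -0.41 in culture and -0.14 in marrow, was close to that of all genes (-0.36 and -0.06). After centring, 7 rose and 6 fell in culture, and 2 rose and 6 fell in marrow. Fos, a subunit of AP-1, fell by 1.88 ± 0.12 in culture and by 2.49 ± 0.21 in marrow on the log2 scale (limma, adjusted p = 5.22e-06 and 0.000144). Rela, the main activating subunit of NF-kB, changed by -0.31 in culture and by 0.26 in marrow, neither called. Nfkb1, its partner, changed by -0.61 in culture (limma, adjusted p = 0.00597) and by 0.12 in marrow (adjusted p = 0.667). Of 38 genes of chemokine receptor signalling, such as G proteins and arrestins, 2 rose and 26 fell in culture (3 and 15 after centring), and 4 rose and 3 fell in marrow. Among all 9474 genes, 7.96% rose and 32.6% fell in culture, and 6.7% rose and 11.5% fell in marrow. After centring, 1365 of all genes rose and 1205 fell in culture. Arrb2, an arrestin that switches chemokine receptors off, fell by 1.97 ± 0.13 in culture on the log2 scale (limma, adjusted p = 6.57e-06). In marrow it changed by 0.47 ± 0.17, which was not called (limma, adjusted p = 0.0859), and the difference of its responses, 2.44, was called (adjusted p = 7.63e-06). Of 13 measured proteases that can trim chemokines, 6 rose and 4 fell in culture and 2 rose and 2 fell in marrow.

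Around Ccl6, 11 other genes with a start within 500 kb were measured. In culture Ccl9 rose, and Ccl3, Wfdc17 and Ap2b1 fell. Wfdc17, 111 kb from Ccl6, changed by -2.65 ± 0.31 (limma, adjusted p = 0.000156), and Ap2b1 by -0.41 ± 0.13 (adjusted p = 0.0265), which is -0.05 relative to the median gene. In marrow, Slfn3 was the gene called, at -1.12 ± 0.30 (limma, adjusted p = 0.0328). Of these 11 genes, 1 rose and 3 fell in culture, where 7.96% of all genes rose and 32.6% fell. In marrow 0 rose and 1 fell, where 6.7% of all genes rose and 11.5% fell. Ccl9 and Ccl3 moved in opposite directions in culture. Around Ccl24, 12 such genes were measured, and none rose in culture, where Baz1b (-0.55) and Por (-0.57) fell (-0.19 and -0.21 relative to the median gene). In marrow Rhbdd2, 59.6 kb from Ccl24, rose by 1.37 ± 0.36 (limma, adjusted p = 0.0310), and Baz1b changed by -0.52 (adjusted p = 0.0264). Hip1, at -27.9 kb and the closest of them, was not called in culture (0.04) or marrow (0.32). No gene with a start within 500 kb of Ccl2 was measured.

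**Figure D4:**
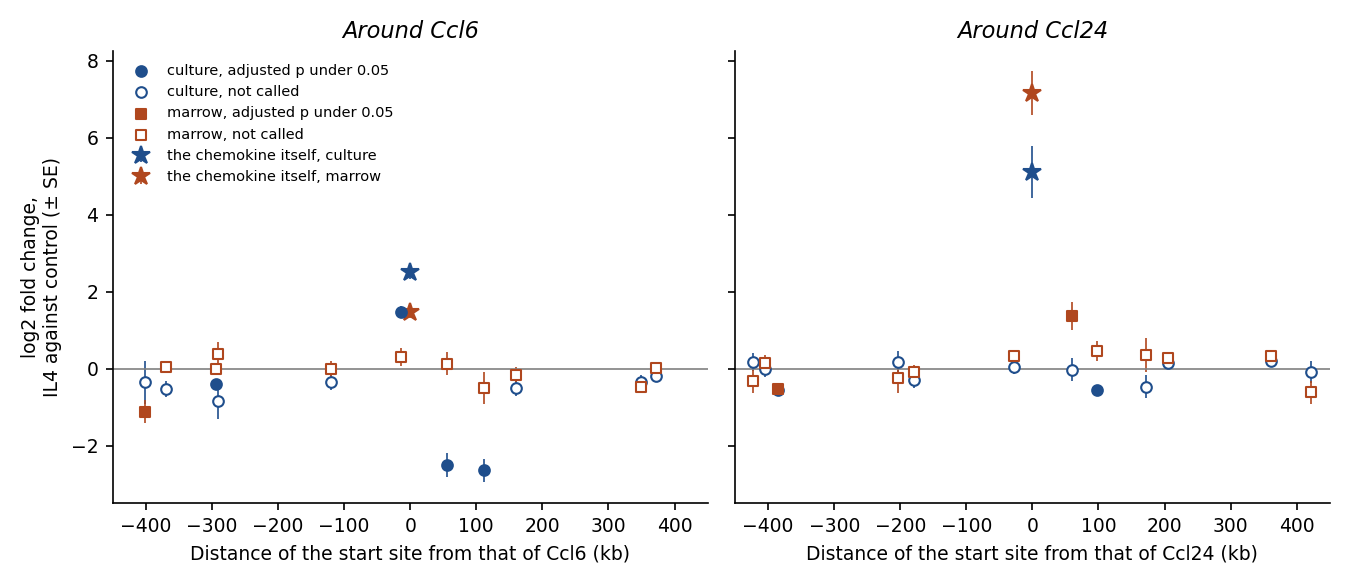
Log2 fold change, IL4 against control (y axis, ± SE), of the measured genes with a start within 500 kb of Ccl6 (left) and Ccl24 (right), by distance between start sites in kb (x axis, in the direction of the chromosome). Stars are Ccl6 and Ccl24 themselves, circles are culture and squares marrow, and filled symbols have an adjusted p below 0.05. Next to Ccl6, Ccl9 rises and Ccl3 and Wfdc17 fall in culture, and no gene near Ccl24 changes by as much as Ccl24.

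Other genes were ranked by the mean of their Pearson correlations with each member within the tables, over 8 culture and 6 marrow libraries and 6924 genes with enough reads. These libraries share the contrast of IL4 with control, and the correlations are given as a description. Among the 3 closest to Ccl24 were Retnla (mean r = 0.981) and Rnase2a (0.981). Closest to Ccl6 were Ubl3 (0.989), Cish (0.987) and Retnla (0.984). Retnla, a secreted marker of alternatively activated macrophages, had 0 reads in all controls, 4641 to 11618 with IL4 in culture and 895 to 3037 with IL4 in marrow. Closest to Ccl2 were Tlr9, the endosomal receptor for unmethylated DNA (0.931), Utp3 (0.926) and Xpo1 (0.923). Tlr9 fell from 12 to 28 reads to 0 to 4 in culture, and from 24 to 33 reads to 4 to 9 in marrow. Its changes were -3.16 ± 0.67 in culture and -2.23 ± 0.39 in marrow (limma, adjusted p = 0.00459 and 0.00468).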

How the data were processed

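Per the labels' protocols, RNA was isolated with the RNeasy Micro kit and sequenced as TruSeq RNA v2 libraries. Per the submitters' processing notes, the build was mm10 and the tools included TopHat2 2.0.13 and bcl2fastq; how reads were counted, filtered and normalized is not given in the sources used here. The authors deposited log2 values per library, a linear fold change (a ratio), a p-value and a q-value per gene, in a table per experiment. Whole reads were recovered from the log2 values for 9450 of 9474 genes (99.7%; largest log2 residual 0.00062 under 100 reads), which keep no strand or length. The tables hold 0 unused columns of sample values. Libraries of a group all differed beyond sampling noise (chi-square over its degrees of freedom from 1.37 to 5.92) and were counted separately. Each pair with a culture library numbered 4 lay at 4.17 to 5.92, and every other pair at 1.37 to 2.20.

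The log2 values were compared within each table with limma 3.58.1 in R 4.3.3 (lmFit and eBayes with a variance trend and without covariates, on 6 residual degrees of freedom in culture, 4 in marrow and 10 for the difference of the responses over all 14 libraries), two-sided, with Benjamini-Hochberg adjustment over 9474 genes and a threshold of 0.05. The code was tested on simulated data. Ratios of reads have exact 95% counting intervals, which, like the floor of 3 reads, cover counting error only. The labels do not say that a number marks a shared culture, animal or batch, so the fits had no replicate term. Libraries with the same number had correlations of -0.064 to 0.098 in their deviations, none above 0.1. In marrow all were positive, 0.026 to 0.098. Alternatives were other scalings, filters and models and leaving out each library. Named genes were the 3 members, measured chemokines and receptors, up to 3 genes with the smallest p in each other list and comparison, Stat6, Il4ra, Rela and Nfkb1, neighbours within 500 kb, and the 3 genes most like each member among those with a mean of at least 10 reads in each table. The members and the 19 lists were chosen with earlier results of these data known. Results of 2 genes that these rules name are not reported here.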

Additional observations from a re-analysis of the deposited data

Results flagged for a closer look

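In 34 groups of 4 culture libraries (17 chemokine and receptor genes), 2 held a library far from the others by Dixon's test, where chance gives about 1 in 20. Both concern Ccr1, the receptor for Ccl6. Its value was 6.57 (deposited log2, 99 reads) in the fourth culture control, against 30 to 49 reads in the others. It was 6.27 (76 reads) in the fourth culture IL4 library, against 154 to 173 reads in the others. The same 2 libraries made the groups of Ccl2 overlap. Their pairs within a group also differed most over all genes, with a chi-square over its degrees of freedom of 4.17 to 5.92.

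The responses to IL4 differed between marrow and culture (interaction term in limma over 14 libraries, adjusted p below 0.05) for 9 of the 17 genes, where 23.1% of all genes were called. The marrow response was lower for Ccl6 (-1.05) and Ccl9 (-1.17). It was higher for Ccl3 (2.64), Cxcl14 (2.13), Pf4 (4.25), Ccr3 (2.93), Cxcr4 (1.71), Cx3cr1 (1.46) and Cmklr1 (2.74). Cxcl14 had 0 reads in all marrow libraries and Cx3cr1 had 0 in all IL4 libraries, so the values of both depend on the 0.5 added to the reads. With voom on recovered reads neither was called (adjusted p = 0.117 for Cxcl14 and 0.310 for Cx3cr1). Pf4 had 1 read in each marrow control and 1 to 6 with IL4, and Cmklr1 had 1 to 2 and 1 to 11. The marrow changes of Pf4 and Cmklr1 thus rest on few reads, and neither was called (limma, adjusted p = 0.158 and 0.160).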

How the results depend on the processing

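Ccl6 in culture, in marrow and between them, and Ccl24 in culture and in marrow, kept their direction and their call under each alternative that gave a value (Ccl6 2.40 to 2.87, 1.30 to 1.59 and -1.30 to -0.93; Ccl24 2.84 to 5.56 and 4.53 to 7.37). Ccl2 in culture lost its call after centring (-2.48) and quantile normalization (-2.40), and leaving out each library gave -3.55 to -1.94 (adjusted p 0.00788 to 0.0750). Ccl2 in marrow ranged from -3.35 to -2.25 when each library was left out (adjusted p 0.00612 to 0.0768). The difference of the Ccl24 responses passed the threshold without the variance trend (2.05) and on a log2 scale with 5 added to RPM (1.70). The count of chemokine and receptor genes called in marrow went from 6 to 3 above the 25th percentile of mean level, a filter that Ccl24 in both experiments and Ccl2 in marrow did not pass. Genes called in marrow numbered 1721 and, with each library left out, 1104 to 1460 (1147 without the second control and 1104 without the third). The split of all genes called followed scaling: culture had 754 higher and 3084 lower, and 1365 and 1205 after centring; marrow had 635 and 1086, and 895 and 845; the difference had 1575 and 611, and 900 and 889. The labels gave no pairing of the replicate numbers. A fit with the replicate block called 3447 genes in culture (3838 without it) and 1764 in marrow, with adjusted p for Ccl2 of 0.0324 and 0.0328, and changed no call of the 3 members. In marrow every library correlated best with its own number, a hint from the data, and in culture this was not so. The causes were not tested. Ccl2 and control Ccl24 have too few reads for a firm size of change.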
